A study of Mus musculus with 16 samples.

Results

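The TGF-β signalling genes described here are 9 genes chosen by name: the ligand Tgfb1, the receptors Tgfbr1 and Tgfbr2, the signal carriers Smad2, Smad3 and Smad4, the inhibitors Smad7 and Ski, and Nrros, which holds the latent ligand at the cell surface. All 9 had counts in at least 1 library, of 18580 genes with counts in all, and all 9 passed the filter on low counts in each comparison. Each gene was followed by cell population, genotype and treatment in 16 libraries of brain immune cells. TGF-β is secreted in a latent form and has to be released before it can act. The freed ligand binds TGFBR2, which then phosphorylates TGFBR1, and TGFBR1 phosphorylates SMAD2 and SMAD3, which enter the nucleus with SMAD4. In the brain this pathway is known for keeping microglia, the resident immune cells of the tissue, in their homeostatic state.

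The mice were male and female CD163KO animals (allele CD163tm1.1(KOMP)Vlcg) and their WT littermates on C57BL/6N, aged 12 weeks when operated. CD163 is a scavenger receptor for haemoglobin found on macrophages. Each animal received murine α-syn, the protein that aggregates in Parkinson's disease, on both sides of the striatum, either as monomers (MONO) or as pre-formed fibrils (PFF), and brains were taken 2 months later, so no group was left without an injection. Macrophages (CD11b+ and high in CD45) and microglia (CD11b+ with low to intermediate CD45) were sorted, and the 16 groups that these factors make had 1 table apiece. The deletion is carried by every cell of the animal. Between 4 and 7 mice were injected per group, 3 replicates were sequenced, and the sources do not say if a deposited table is a single replicate or a sum. The 2 libraries of the male CD163KO MONO group, 1 of each population, come from a group that the study excluded. Their levels are given, but they did not enter the tests, which left 7 libraries of each population. Libraries of the other sex, genotype or treatment therefore served as replicates, and p-values measure only the spread between these libraries.

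Depth ran from 12170686 to 21433841 estimated counts in macrophages and from 8648751 to 18768238 in microglia. Cd163 checked the genotype labels in macrophages, with 748 to 5275 estimated counts in the 4 WT libraries and at most 1 in the 4 CD163KO libraries. In microglia Cd163 was scarce and did not bear out the labels: the 4 libraries labelled CD163KO held 5 to 23 estimated counts, the female WT libraries 46 and 101, and the male WT MONO and male WT PFF libraries 0 and 1. The female CD163KO MONO microglia held 799 estimated counts of 4 Y-linked genes, against at most 2 in the other female libraries, so that library goes against its label for sex. The male WT PFF macrophages listed 8378 genes and the male CD163KO MONO macrophages 9775, below the 11272 or more of the other macrophage libraries. In the male WT PFF and male CD163KO MONO microglia, the cystatin C gene Cst3 alone took 19.7% and 18.3% of the counts, above the 4.63 to 5.54% of the other microglia. The sort was checked against marker genes. The 12 microglia genes summed to 17740 to 43450 FPKM in microglia and to 956 to 1877 in macrophages, while 12 border-associated macrophage genes summed to 2357 to 5830 FPKM in macrophages and to 29.8 to 172 in microglia. The 12 neutrophil markers were all listed in every macrophage library and summed to 22110 to 134500 FPKM there, against 947 to 2706 in microglia. The 8 monocyte markers summed to 364 to 3648 FPKM in macrophages and to 8.29 to 90.4 in microglia. Nkg7 and Gzma, genes of cytotoxic lymphocytes, were listed in all 8 macrophage libraries at 22.3 to 181 and 10.9 to 41.4 FPKM. The 7 choroid plexus markers summed to 84.9 to 12620 FPKM in macrophages and to 263 to 2529 in microglia. At least 6 of these 7 were listed in every microglia library, but only 2 in the male WT PFF and male CD163KO MONO macrophages. A difference between the populations is thus one between gates that both held RNA of other cell types, in unlike amounts. The part of these cell types in any result was not tested.

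Before the values, the starts of 2 genes are shown because they ended on opposite sides of the comparison between populations: Tgfbr1, which was higher in microglia, and Nrros, which was lower there once libraries were scaled to one another. Both stretches are the 250 bases before the annotated start in RefSeq (build GRCm38.p6). Of the 9 genes 6 were matched in the RefSeq table, and Tgfbr1 has a second start at chr4:47385966-47386215, whose letters are counted but not printed. Capitals mark GGGCGG or its complement CCGCCC, known as the GC box, and CAGAC or its complement GTCTG, which holds the short element that SMAD proteins bind. The full palindrome GTCTAGAC was searched on both strands as well. The first sequence lies at chr4:47352972-47353221 on the plus strand and the second at chr16:32165595-32165844 on the minus strand.
Tgfbr1: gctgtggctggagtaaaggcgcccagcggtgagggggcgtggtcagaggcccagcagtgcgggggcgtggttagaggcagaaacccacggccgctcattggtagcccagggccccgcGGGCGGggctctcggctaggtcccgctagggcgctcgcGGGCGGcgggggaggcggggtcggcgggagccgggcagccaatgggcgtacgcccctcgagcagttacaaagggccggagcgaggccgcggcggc
Nrros: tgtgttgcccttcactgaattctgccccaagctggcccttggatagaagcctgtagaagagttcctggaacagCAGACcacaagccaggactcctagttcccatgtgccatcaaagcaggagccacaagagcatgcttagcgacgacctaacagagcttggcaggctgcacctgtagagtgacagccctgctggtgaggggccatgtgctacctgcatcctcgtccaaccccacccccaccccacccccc
The printed Tgfbr1 stretch held 2 GC boxes and no CAGAC, and 74.8% of its bases were G or C. The Nrros stretch held no GC box and 1 CAGAC, with 58.4% G or C, against a median of 52.4% over 32851 promoters of the same length. GGGCGG was present in 32.7% of those promoters and CAGAC in 42.2%, so both are common. GTCTAGAC, present in 0.167% of them, was in neither stretch. Letters that resemble the site of the myeloid factor PU.1 were searched on both strands too, as GAGGAA (present in 23.3% of promoters), as the overlapping GGAAGT (19.7%) and as their union GAGGAAGT (2.44%), and none was in either printed stretch. The second Tgfbr1 start held no GC box, 1 CAGAC, 1 GAGGAA and 1 GGAAGT with 52.8% G or C, so the contrast with Nrros holds for the printed start alone. These matches describe letters only and say nothing about binding in these cells. Tgfbr2 at chr9:116175364-116175613 held 1 CAGAC, 1 GAGGAA and no GC box with 58.4% G or C, whereas Tgfb1 and Ski held 5 GC boxes each.

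Microglia differed from macrophages in most of the members: the receptor Tgfbr1, the inhibitors Smad7 and Ski, Smad3 and, less firmly, Tgfbr2 were higher in microglia, and Nrros was lower after scaling. With edgeR's quasi-likelihood test on estimated counts scaled by TMM (a factor per library that assumes most genes do not differ), 6 of the 9 genes passed an adjusted p of 0.05, with 5 higher and 1 lower in microglia. Over all 12826 genes tested, 23.2% passed, 8.66% as higher and 14.6% as lower in microglia. Of the calls 37.3% were higher in microglia, a share that rose to 88.2% with library totals and to 89.1% with limma on log2(FPKM + 1). The median log2 fold change of the 9 genes was 1.24, beside 0.17 over all genes. Fewer cells of a type and less RNA per cell cannot be told apart in such bulk samples.

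By median the ligand was the scarcest member in microglia. In the male CD163KO MONO microglia, however, Tgfb1 at 2.11 FPKM was above Smad4 at 1.67 FPKM. Tgfb1 ranged from 0.03 to 1.27 FPKM in the 8 macrophage libraries (median 0.445) and from 0.05 to 2.11 FPKM in the 8 microglia libraries (median 1.19). The ranges overlapped, and the lowest values rested on 1 estimated count in the male WT PFF macrophages and on a level of 0.05 FPKM in the male WT MONO microglia. Its log2 fold change, microglia minus macrophages, was -0.39 ± 1.17 (SE, 7 libraries each, adjusted p = 0.852 with edgeR), so no difference was detectable between these libraries.

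Nrros, also known as LRRC33, tethers latent TGF-β1 on myeloid cells and was the most abundant member in every macrophage library. Its deposited FPKM ranged from 61.3 to 331 in macrophages (median 119.6) and from 34.7 to 181 in microglia (median 132.8), and the ranges overlapped. Divided by the TMM factors, the values ran from 116 to 251 (median 161) in macrophages and from 52.3 to 109.6 (median 82.7) in microglia, with every microglia library below every macrophage library. In log2 units the difference, microglia minus macrophages, was -1.33 ± 0.20 (SE, 7 libraries each, adjusted p = 0.00018 with edgeR), but it was 0.14 with library totals in place of TMM and 0.09 with limma on log2(FPKM + 1). The sign of the Nrros difference therefore depended on the scaling. The same choice moved the median of all genes from 0.17 to 1.64 with library totals and to 1.05 with limma. Relative to that median Nrros lay at -1.49 with TMM, -1.50 with library totals and -0.96 with limma, below the typical gene in all 3 fits.

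**Figure D1:**
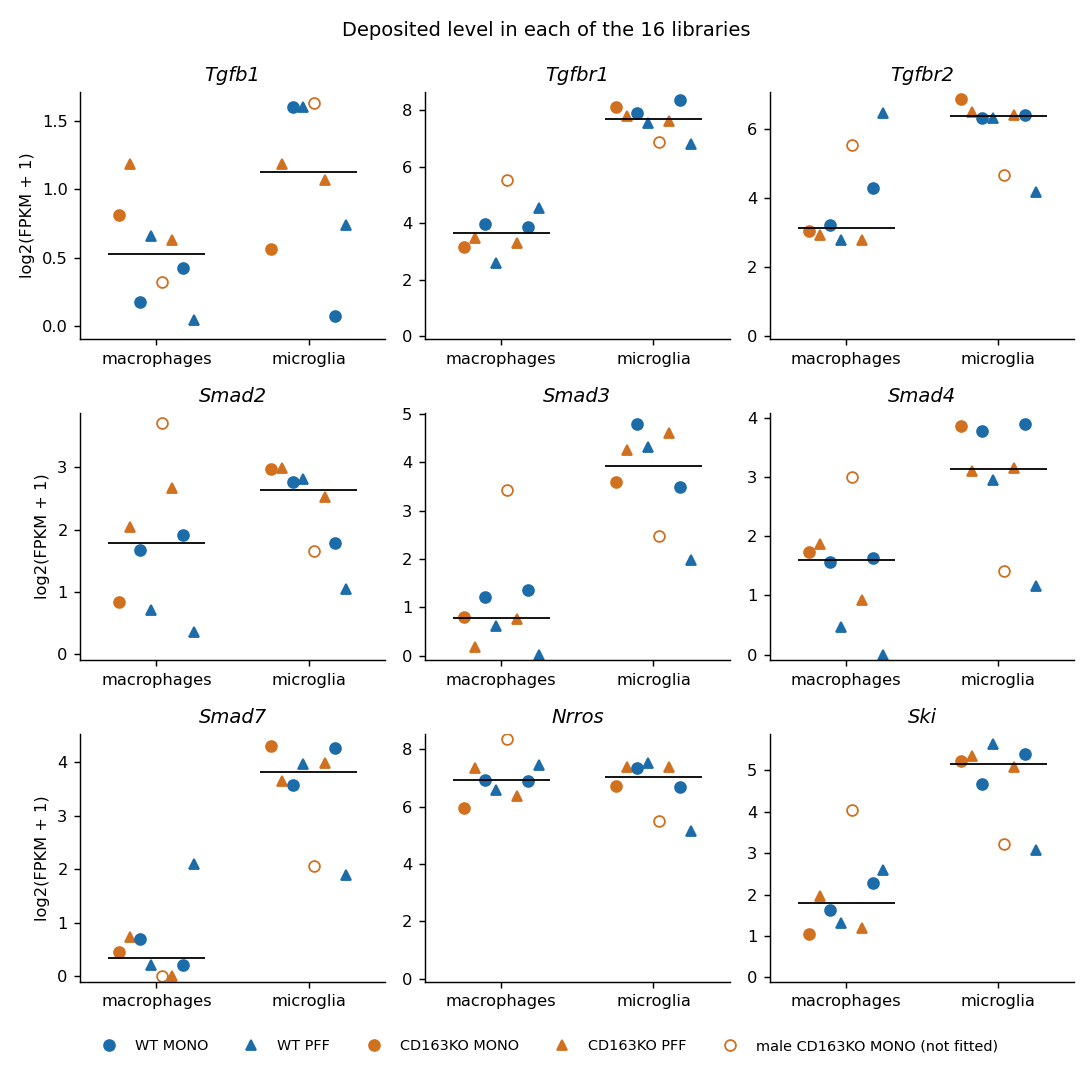
Deposited level of the 9 genes as log2(FPKM + 1), with its own vertical range in each panel, in 8 macrophage and 8 microglia libraries; each mark is 1 library, colour gives the genotype, shape the treatment, and the line is the median of the 8. Tgfbr1 separates the populations in all libraries, while Nrros overlaps on this scale and separates downwards in microglia only after TMM scaling.

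Tgfbr1, the type I receptor kinase that phosphorylates SMAD2 and SMAD3, was the most abundant member in every microglia library. It ranged from 5.09 to 45.6 FPKM in macrophages (median 11.8) and from 111.8 to 328 FPKM in microglia (median 207). No library of one population reached the other, and it was the 1 member of 9 with this property on the deposited scale, where 4.56% of genes were higher in every microglia library and 2.25% lower. Between the populations Tgfbr1 differed by a log2 fold change of 2.95 ± 0.26 (SE, 7 libraries each, adjusted p = 1.65e-06 with edgeR), a 7.75-fold difference. Leaving out 1 library at a time gave 2.74 to 3.04, and all 14 such fits kept the call.

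Tgfbr2, the type II receptor that binds the ligand first, was less clearly separated. It ranged from 5.85 to 86.7 FPKM in macrophages (median 7.77) and from 16.9 to 117 FPKM in microglia (median 81.9). The male WT PFF macrophages at 86.7 FPKM and the male CD163KO MONO macrophages at 45.2 FPKM, the macrophage libraries with the fewest listed genes, were the highest, and the other 6 lay between 5.85 and 18.4. The lowest microglia were the same groups, the 2 libraries rich in Cst3, at 16.9 and 24.6 FPKM. For Tgfbr2 the log2 fold change was 1.16 ± 0.36 (SE, 7 libraries each, adjusted p = 0.0307 with edgeR). Only 4 of the 14 fits without 1 library kept the call (adjusted p up to 0.0796), and without the male WT PFF macrophages the log2 fold change was 1.54 (adjusted p = 4.8e-05).

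Both receptors use several transcripts in the tables. For Tgfbr1, the transcript of 5767 bases made up 53.9 to 86.3% of the gene's FPKM in macrophages and 51.9 to 82.1% in microglia. The shortest of its 3 transcripts, of 5632 bases, contributed 0.4 to 12.4% in macrophages (median 2.15%) and 1.0 to 19.6% in microglia (median 14.3%), and the ranges overlapped. Tgfbr2 was listed with 2 transcripts, and the one of 4728 bases held 56.9 to 100% of its FPKM in macrophages and 56.6 to 100% in microglia. Transcripts of a gene share most of their bases, so these shares are RSEM's estimates and were not tested.

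Among the signal carriers, Smad3 differed and Smad2 and Smad4 did not pass the test. Smad3 ranged from 0.01 to 9.75 FPKM in macrophages (median 0.72) and from 2.92 to 26.6 FPKM in microglia (median 14.5). The lowest value rested on 1 estimated count in the male WT PFF macrophages. The one macrophage library above 1.58 FPKM was the male CD163KO MONO library. Among the fitted libraries the populations did not overlap, which was not counted over all genes for these libraries. Smad3 had a log2 fold change of 2.87 ± 0.75 (SE, 7 libraries each, adjusted p = 0.0114 with edgeR), and all 14 fits without 1 library kept the call.

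Smad2, the other receptor-activated SMAD of this branch, ranged from 0.28 to 12.0 FPKM in macrophages (median 2.47) and from 1.07 to 6.94 FPKM in microglia (median 5.26). The highest macrophage value was the excluded male CD163KO MONO library, and the fitted libraries, at 0.28 to 5.34 FPKM in macrophages and 1.07 to 6.94 FPKM in microglia, overlapped. On the log2 scale its difference was -0.35 ± 0.58 (SE, adjusted p = 0.715 with edgeR), with its sign turning under library totals (1.18) and limma (0.96). Smad4, the common partner of both, ranged from 0 to 6.96 FPKM in macrophages (median 2.04) and from 1.24 to 13.8 FPKM in microglia (median 7.73). It had no count in the male WT PFF macrophages, where 3 counts would have been 0.0488 FPKM. The log2 fold change of Smad4 was 1.24 ± 0.77 (SE, adjusted p = 0.279 with edgeR), and it passed the test with library totals (2.87, adjusted p = 0.00872), with limma (1.96, adjusted p = 0.000769) and without the male WT PFF macrophages (0.88, adjusted p = 0.042).

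The inhibitors were higher in microglia. Smad7, which blocks the type I receptor and is itself induced by the pathway, ranged from 0 to 3.27 FPKM in macrophages (median 0.265) and from 2.72 to 18.8 FPKM in microglia (median 13.1). It had no count in the male macrophages of the CD163KO MONO and CD163KO PFF groups, where 3 counts would have been 0.0357 and 0.0319 FPKM, and its highest macrophage value was in the male WT PFF library. Between the populations the log2 fold change was 3.18 ± 0.77 (SE, 7 libraries each, adjusted p = 0.00751 with edgeR). After TMM scaling every microglia library was above every macrophage library.

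Ski, a co-repressor that binds SMAD complexes, ranged from 1.06 to 15.5 FPKM in macrophages (median 2.52) and from 7.4 to 48.9 FPKM in microglia (median 34.5). The fitted libraries did not overlap, and the single macrophage library inside the microglia range was again the male CD163KO MONO library. How many of all genes did not overlap among the fitted libraries was not counted. The log2 fold change was 2.34 ± 0.25 (SE, 7 libraries each, adjusted p = 8.08e-06 with edgeR), a 5.06-fold difference. Over all 16 libraries on the TMM scale, Tgfbr1 and Smad7 lay above in every microglia library and Nrros below, where 6.45% and 5.02% of all genes did so.

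**Figure D2:**
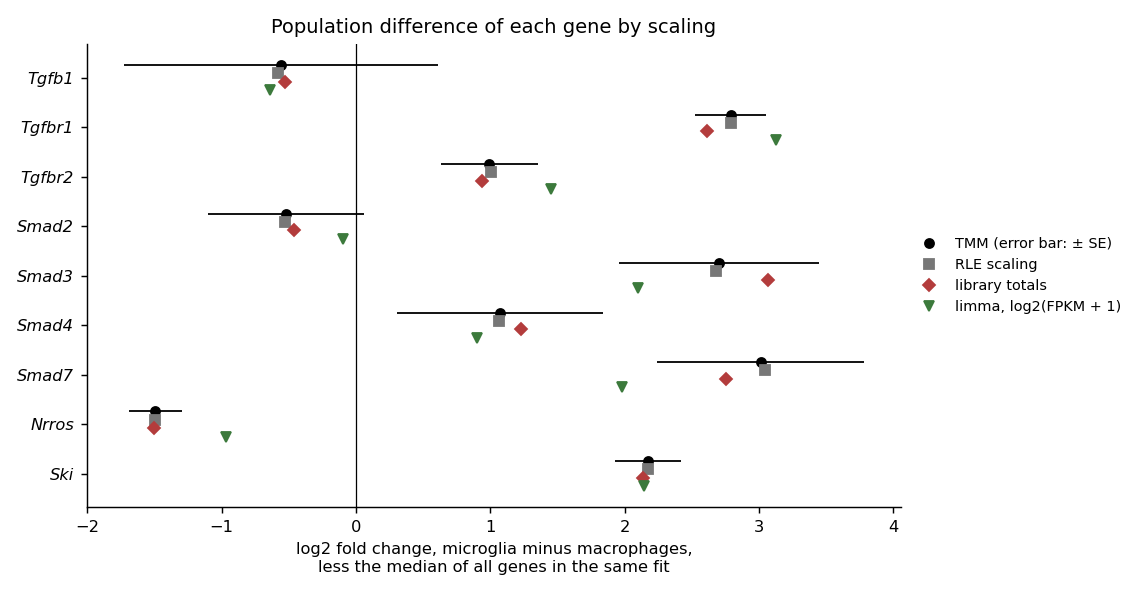
Log2 fold change of each gene between populations (microglia minus macrophages, 7 libraries each), less the median of all genes in the same fit, for TMM, RLE, library totals and limma on log2(FPKM + 1); error bars are the SE of the TMM fit. The 4 scalings place Tgfbr1 between 2.61 and 3.12 and Nrros between -1.50 and -0.96 relative to the median gene, although the unadjusted sign of Nrros turns under library totals and limma.

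Ratios of 2 members within a library do not depend on the scaling of that library, and they are given as a description. The Tgfbr1 to Nrros ratio of FPKM ranged from 0.0533 to 0.138 in macrophages (median 0.117) and from 1.03 to 3.22 in microglia (median 2.04). Macrophages thus held more Nrros than Tgfbr1 in all 8 libraries and microglia more Tgfbr1 than Nrros in all 8, including the libraries that stood apart in other ways. For Ski and Nrros the ratio ran from 0.0154 to 0.047 in macrophages and from 0.151 to 0.399 in microglia. The receptors changed their proportion too, with a Tgfbr1 to Tgfbr2 ratio of 0.255 to 1.76 in macrophages and of 2.30 to 6.62 in microglia. The ratio of Smad3 to Smad2 ran from 0.0357 to 0.962 in macrophages and from 1.61 to 4.96 in microglia. These ratios did not overlap between the populations. By contrast, the Tgfbr2 to Nrros ratio overlapped, with 0.0404 to 0.499 in macrophages and 0.435 to 1.13 in microglia, through the male WT PFF macrophages. The Smad7 to Tgfbr1 ratio overlapped as well, with 0 to 0.148 in macrophages (median 0.0368) and 0.0243 to 0.0785 in microglia (median 0.0539). The top of the macrophage range was the male WT PFF library, and the next highest was at 0.0659, which 3 microglia libraries exceeded.

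**Figure D3:**
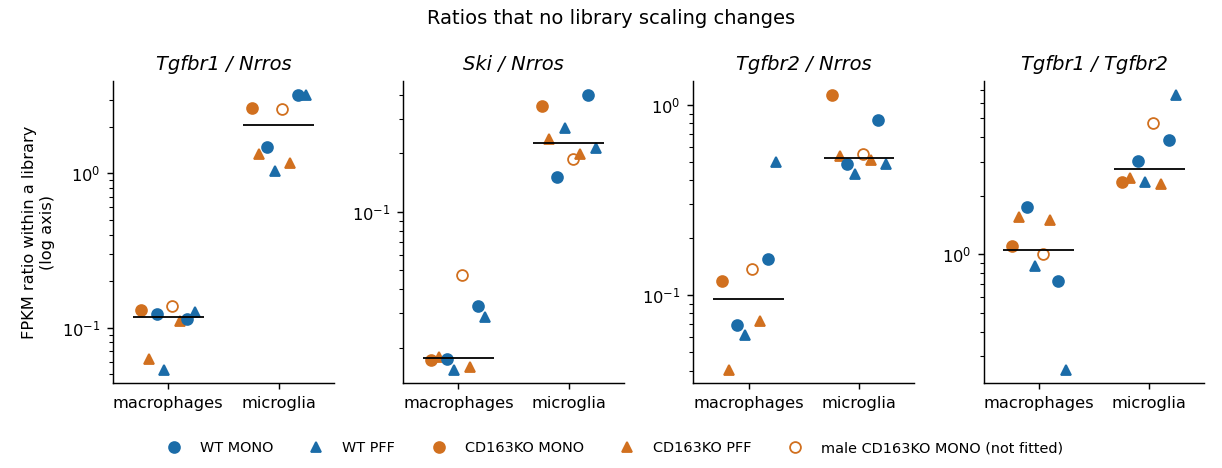
FPKM ratio of 2 genes within each library (log axis) in 8 macrophage and 8 microglia libraries; marks are single libraries, colour gives the genotype, shape the treatment, and the line is the median. The Tgfbr1 to Nrros ratio runs from 0.0533 to 0.138 in macrophages and from 1.03 to 3.22 in microglia.

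The order of the members by FPKM, a level per length, also differed between the populations. In macrophages the medians ran from Nrros at 119.6 through Tgfbr1 (11.8), Tgfbr2 (7.77), Ski (2.52), Smad2 (2.47), Smad4 (2.04), Smad3 (0.72) and Tgfb1 (0.445) to Smad7 (0.265). Nrros was above Tgfbr1 in 8 of 8 libraries and Tgfbr2 above Ski in 8 of 8, but Tgfbr1 was above Tgfbr2, and Ski above Smad2, in only 5 of 8. Below Tgfbr2 the order of neighbours therefore varied between libraries. In microglia the order was Tgfbr1 (207), Nrros (132.8), Tgfbr2 (81.9), Ski (34.5), Smad3 (14.5), Smad7 (13.1), Smad4 (7.73), Smad2 (5.26) and Tgfb1 (1.19). Each member there was above the next one in at least 6 of 8 libraries.

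The further genes of the pathway were counted in 8 lists with 107 genes in all. Of 91 list entries tested, 21 were higher and 13 lower in microglia (37.4% called, against 23.2% of all genes, with 8.66% higher and 14.6% lower). Of the 21, 11 came from the list of microglia genes, and without that list 10 of 79 were higher and 13 lower (29.1% called), a share near that of all genes. None of these 34 calls turned sign with RLE scaling, and 3 did with library totals and with limma, namely Stub1, Rhoa and Junb. Among the other receptors and coreceptors of the family, 3 of 12 tested genes were higher and none lower. The number called in either direction is close to the share over all genes (23.2%), of which 8.66% were higher. The 3 were the activin receptors Acvr2b (3.14 on the log2 scale) and Acvr1 (2.84) and the coreceptor Eng (2.81), with a list median of 1.78 beside 0.17 over all genes. With library totals 5 of 12 were higher and with limma 6 of 9, where 36.8% and 51.0% of all genes were higher. Among 12 genes of latency and activation, the integrin subunits Itgb3 (4.00) and Itgb5 (2.50) were higher, Thbs1, a protein that can activate latent TGF-β, was lower (-3.72), and the median was -0.05 with TMM but 1.34 with library totals and 1.12 with limma. Among 8 tested ligands of the family, Bmp1, in fact a protease, was higher (6.52), and Bmp2 (-10.17) and Gdf3 (-3.99) were lower, with a median of -1.50 that turned to 0.34 with library totals and 0.16 with limma. Bmp2 had no FPKM above 0 in any microglia library and at most 2.54 in macrophages, so its fitted value is no bound.

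For the lists that act within the cell the counts depended on the scaling. Over all genes 23.2% were called with TMM, 41.7% with library totals (36.8% as higher and 4.91% as lower) and 57.2% with limma (51.0% as higher and 6.25% as lower). None of the 3 tested other SMADs passed with TMM (median 1.45), but 2 of 3 were higher with library totals and 2 of 2 with limma. Of 19 SMAD regulators and cofactors, Pmepa1, an inhibitor of the pathway that TGF-β induces, was higher (1.89) and the ubiquitin ligase Stub1 lower (-0.77, but 0.63 with library totals and 0.60 with limma), and the median was 0.20. With library totals 7 of the 19 were higher and with limma 12, with none lower in either. In the non-SMAD branch the adaptor Tab2 was higher (1.28) and the GTPase Rhoa lower (-0.95, but 0.49 with library totals and 0.51 with limma) among 10 genes, and the median was -0.01 with TMM, 1.42 with library totals and 1.15 with limma. In that branch 3 of 10 genes were higher with library totals and 4 with limma, with none lower.

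Genes that TGF-β is known to induce or repress in various cells were called lower in microglia more often than higher with TMM. Of 15 tested, 2 were higher, the integrin Itgae (7.80) and Myc (1.19), beside 8.66% of all genes. The 8 that were lower, beside 14.6% of all genes, were led by the matrix protein Fn1 (-7.23), Tgfbi (-3.49) and Id1 (-3.47). The median was -2.34 (-0.94 with library totals and -0.66 with limma). The counts moved too, to 3 higher and 3 lower of 15 with library totals and to 3 higher and 5 lower of 12 with limma. Junb, one of the 8, was at -1.46 with TMM but at 0.30 with library totals and 0.05 with limma. Itgae was listed at 0 FPKM in every macrophage library, so its fitted value is no bound. Of the 12 genes that depend on TGF-β in microglia, 11 were higher, led by the transcription factor Sall1 (6.97), the fructose transporter Slc2a5 (6.55) and Sparc (4.55), with a median of 3.73, and Fcrls (0.60, adjusted p = 0.286 with edgeR) did not pass. The latter list holds the genes that mark microglia, so its count describes the sort. In the other 8 comparisons no gene of any list was called.

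**Figure D4:**
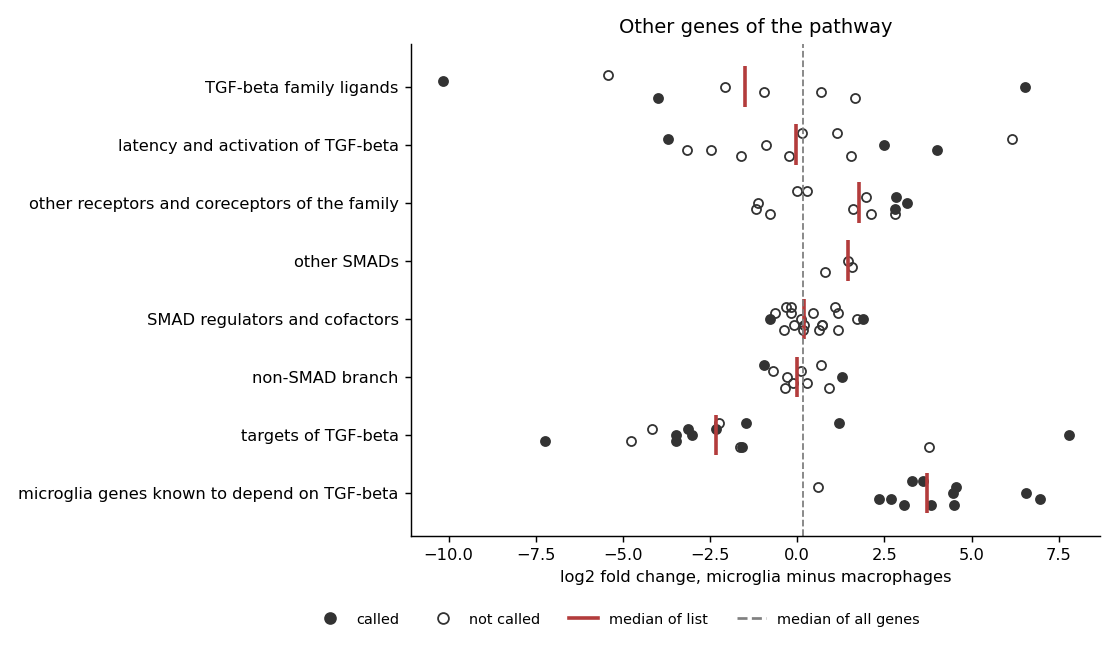
Log2 fold change between populations (microglia minus macrophages) of the tested genes of 8 pathway lists; each circle is a gene, filled where the adjusted p was at most 0.05, the red bar is the median of the list and the dashed line the median of all genes (0.17). The list of microglia genes lies at a median of 3.73 and the list of targets at -2.34, while the medians of the ligands, of latency and activation and of the non-SMAD branch are below 0 here and above 0 with library totals and limma.

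No member was called for PFF against MONO in either population. With edgeR on 7 libraries, 0 of the 9 genes were called in macrophages and 0 in microglia, where 0.0% of 11988 and 0.0% of 12725 genes passed. At an unadjusted p under 0.05 there were 125 and 765 genes, with 0 members among the former and 1, Smad4, among the latter. DESeq2 called 13 and 25 genes, none of them a member. The median log2 fold change of the members was 0.38 in macrophages (all genes -0.11) and 0.28 in microglia (all genes 0.13). Simulated 4-fold changes were recovered for 98.5% of 200 genes in macrophages and for 96.0% in microglia, but smaller changes were not simulated, and the rate is one over genes of all levels that need not hold for members with few counts. Tgfb1 in microglia, for instance, was not called at 2.02 ± 1.99 on the log2 scale (SE, adjusted p = 0.868 with edgeR).

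In microglia, the FPKM of Smad4 was 13.5, 12.7 and 13.8 in the 3 fitted MONO libraries (female CD163KO, female WT and male WT). In the PFF libraries it was 7.53 and 6.67 in female CD163KO and WT and 7.93 and 1.24 in male CD163KO and WT. All PFF values were below all fitted MONO values, on the TMM scale as well, but the male CD163KO MONO library of the excluded group was at 1.67. The log2 fold change was -0.92 ± 0.35 (SE, adjusted p = 0.776 with edgeR), and on the TMM scale Smad4 was the 1 member of 9 whose treatment groups did not overlap in microglia, where 8.96% of genes did not. On the deposited scale Smad4 and Tgfbr1 did not overlap, nor did 8.33% of genes. In macrophages 0 of 9 members and 5.33% of genes did not overlap on the TMM scale, and 1 member (Smad3, lower with PFF) and 6.14% of genes on the deposited scale.

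Tgfbr1 in microglia stood at 275, 239 and 328 FPKM in the same 3 MONO libraries and at 219.8, 186, 194 and 111.8 FPKM in the 4 PFF libraries in the order above. The deposited values did not overlap, yet the excluded MONO library was at 116.5, and after TMM scaling the ranges were 132.7 to 185 and 112.7 to 242. The log2 fold change was -0.06 ± 0.52 (SE, adjusted p = 0.994 with edgeR). Without the male WT PFF microglia, in which Cst3 took 19.7% of counts, it was -0.46 (adjusted p = 0.704), and without the female CD163KO MONO microglia it was 0.33.

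In macrophages Tgfbr1 was at 7.93, 14.7 and 13.5 FPKM in the fitted MONO libraries (female CD163KO, female WT, male WT) and at 10.2, 5.09, 8.94 and 22.1 FPKM with PFF (female CD163KO, female WT, male CD163KO, male WT). The groups overlapped, and the log2 fold change was -0.04 ± 0.36 (SE). Nrros, scaled by TMM, was at 116, 155 and 124 with MONO and at 240, 251, 168 and 120 with PFF, also overlapping. In microglia the scaled Nrros values were 60.4, 90.2 and 57.7 with MONO and 99.5, 109.6, 100.5 and 75.2 with PFF. The log2 fold change of Nrros was 0.68 ± 0.34 (SE) in macrophages and 0.63 ± 0.34 in microglia, and neither passed the test (adjusted p = 1.0 and 0.776 with edgeR). With library totals these values were 0.52 and 0.11. The widest estimates belonged to members with few counts, such as Smad7 in macrophages (1.06 ± 2.38) and Tgfb1 in microglia (2.02 ± 1.99).

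**Figure D5:**
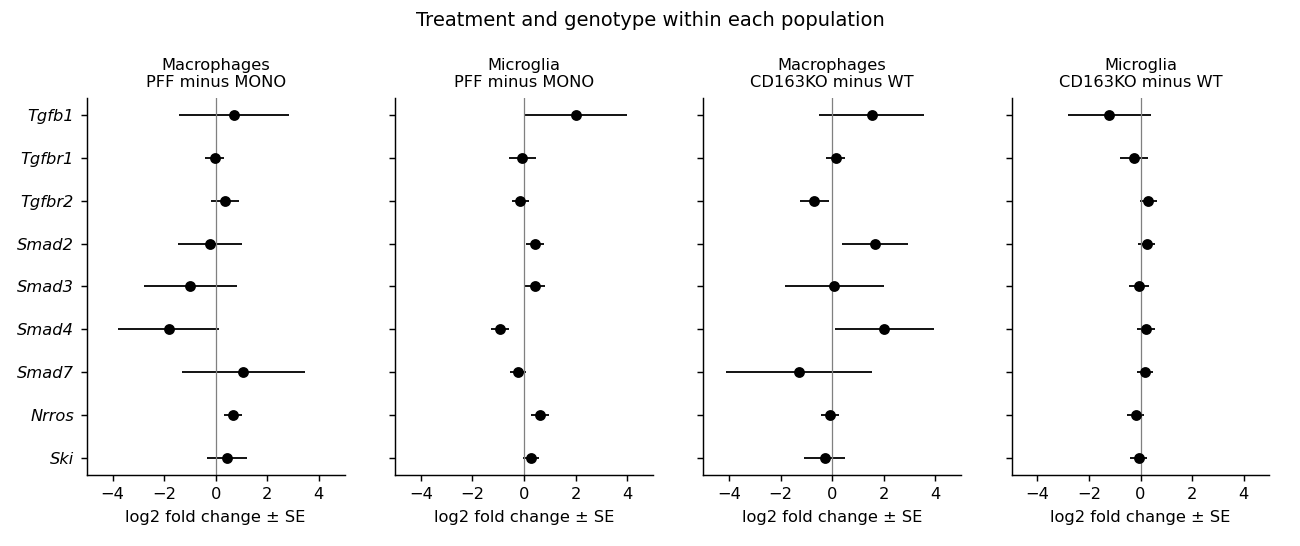
Log2 fold change ± SE of the 9 genes for PFF minus MONO and for CD163KO minus WT in macrophages and in microglia, each from 7 libraries with sex and the other factor in the model. No adjusted p was at or below 0.05, and error bars are widest for the genes with few counts in macrophages.

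Loss of Cd163 was not accompanied by a called change in any member. In macrophages the 1 gene called of 11988 (0.00834%) was Cd163 itself (-11.35 on the log2 scale, adjusted p = 0.0102 with edgeR), named here after its value was seen, and 79 genes had an unadjusted p under 0.05. In microglia 0.0% of 12725 genes passed, 166 had an unadjusted p under 0.05 and DESeq2 called 3, none of them a member. The member log2 fold changes ran from -1.30 ± 2.83 (Smad7) to 2.03 ± 1.93 (Smad4) in macrophages and from -1.21 ± 1.61 (Tgfb1) to 0.30 ± 0.33 (Tgfbr2) in microglia.

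Tgfbr2 was the 1 member of 9 whose genotypes did not overlap in microglia on the TMM scale, where 4.39% of genes did not. Its scaled values were 68.2, 53.3 and 51.4 in the libraries labelled CD163KO (female MONO, female PFF, male PFF) and 44.0, 47.6, 47.8 and 36.6 in those labelled WT (female MONO, female PFF, male MONO, male PFF). On the deposited scale the values were 116.9, 88.6 and 84.5 FPKM against 79.2, 78.7, 84.6 and 16.9 FPKM, which overlapped, as did all 9 members on that scale, where 3.69% of genes did not, and the excluded male CD163KO MONO library was at 24.6 FPKM. The counts of Cd163 did not bear out these labels in microglia. In macrophages 0 of 9 members and 3.72% of genes did not overlap between genotypes on the TMM scale, and 0 of 9 and 2.1% on the deposited scale.

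Sex and the combination of genotype and treatment gave no called member either. Males against females had 0 of 9 members and 0.0% of 11988 genes called in macrophages (152 genes at an unadjusted p under 0.05, 17 by DESeq2) and 0 of 9 and 0.0% of 12725 in microglia (215 and 20). The members ran from -1.36 ± 2.12 (Tgfb1) to 0.88 ± 0.59 (Tgfbr2) in macrophages and from -1.08 ± 1.98 (Tgfb1) to 0.57 ± 0.56 (Tgfbr1) in microglia. The microglia library with Y-linked counts entered as female.

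The difference of the PFF effect between CD163KO and WT, tested as an interaction with 2 residual degrees of freedom, had 0 of 9 members and 0.0% of 13020 genes called in macrophages (59 at an unadjusted p under 0.05, 17 by DESeq2). The members ran from -3.22 ± 5.03 (Smad7) to 4.53 ± 2.25 (Smad2), with a median of 0.66 beside 1.06 over all genes. Smad2 was at 0.78 FPKM with MONO and at 3.12 and 5.34 FPKM with PFF in CD163KO macrophages, and at 2.19 and 2.75 FPKM with MONO and at 0.64 and 0.28 FPKM with PFF in WT macrophages. The excluded CD163KO MONO library, at 12.0 FPKM, lay above all of them. Without the female WT PFF macrophages the fit had 1 residual degree of freedom, and the WT PFF group consisted of the male library that listed the fewest genes. Many genes passed there, members among them, and the median over all genes was 2.12. In microglia 0 of 9 members and 0.0211% of 14225 genes were called, and the members ran from -0.97 ± 1.15 (Tgfbr1) to 1.22 ± 0.71 (Smad3). Among those called were Ddx3y and Eif2s3y, named after their values were seen, which are Y-linked genes with counts in the female CD163KO MONO library. Of 4-fold changes simulated as for the treatment comparison, only 7.5% were recovered for this interaction.

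Genes whose levels ran most like those of each member were found by the root mean square difference of log2(TMM-scaled FPKM + 1), centred on the mean of each gene, over 14 libraries and 12826 genes. For Tgfbr1 these were Mertk (0.239), a receptor for the uptake of dying cells, and Gm5796 (0.321). The genes nearest to Tgfbr2 were Slc12a2 (0.265), an ion cotransporter, and Tlr7 (0.268), a sensor of single-stranded RNA. Smad7 had Havcr2 (0.284), the receptor TIM-3, and the transcription factor gene Mef2a (0.330). Nearest to Ski were Spata13 (0.252) and Arsb (0.277), a lysosomal sulfatase, and nearest to Smad3 were Arhgap4 (0.267) and Ptprs (0.326). For Nrros they were Anapc11 (0.276) and Pea15a (0.278). Smad4 ran most like Ttc14 (0.262) and Pcmtd2 (0.301), Smad2 like Zdhhc3 (0.341) and Zxdc (0.357), and Tgfb1 like Oxsm (0.294) and Echdc1 (0.338). The points share their libraries and depth, and the measure is smallest for genes that vary little.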

How the data were processed

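RNA from sorted macrophages and microglia was sequenced by SMART-seq2, which does not keep the strand, so reads of a gene and of an overlapping antisense gene cannot be told apart. The submitters' processing notes name Bowtie2, RSEM, DESeq2 and the build mm10, with no versions given in the sources used here. The expected counts (estimated counts per RefSeq transcript) were deposited by the authors without normalization. The FPKM were deposited by the authors as well and scaled to transcript length and to the reads of the library. Of 27787 transcripts, 27632 were matched to 18580 gene symbols by RefSeq (GRCm38.p6), the others held no more than 0.128% of any library's counts, counts and FPKM were summed per symbol, and transcripts missing from a table were taken as 0.

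Summed counts were rounded and tested with edgeR 4.0.16 (TMM, filterByExpr, quasi-likelihood test, Benjamini-Hochberg over all genes tested, called at an adjusted p of at most 0.05) in additive models of sex, genotype and treatment, with population where both were fitted, on 14 or 7 libraries. Each SE is the size of the log2 fold change over the square root of the quasi-likelihood F. Libraries of the excluded group (male, CD163KO, MONO) entered only an alternative. Leaving out single libraries, other scalings, no filter, DESeq2, limma and a block for the matched combination were also tried, and leaving out both male WT PFF libraries was chosen after seeing the data. The procedure was tested on simulated data. Batches are not assigned to samples in the labels.

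Beside the 9 members, the genes named are at most the 3 called genes with the largest log2 fold changes in each direction of a pathway list, the 2 genes with the most similar levels, and Cd163 and Y-linked genes as checks. Junb, Fcrls, Cst3, Nkg7 and Gzma fall outside this rule and were named after their values were seen. The members and lists were chosen with earlier results of these data known. Limits given for 3 counts cover counting error only. One called gene that is no member is not reported here.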

Additional observations from a re-analysis of the deposited data

Results flagged for a closer look

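Each gene was examined over the 8 libraries of each population for a library far from the others by Dixon's ratio, and chance marks about 1 in 20 such groups. Of 18 groups 2 were marked, both in macrophages and both through the male CD163KO MONO library, which the study excluded. For Tgfbr1 that library was at 31.4 TMM-scaled FPKM, with the other 7 between 13.4 and 18.8. For Ski it was at 10.7, with the other 7 between 2.00 and 4.32. This library did not enter the tests.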

How the results depend on the processing

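In the population comparison Tgfbr1, Smad3, Smad7 and Ski kept direction and call under all alternatives run, and 5 to 7 members were called in the fits without 1 library. Genes called numbered 2979, 5352 with library totals, 6761 with limma on log2(FPKM + 1), 2504 to 4964 without 1 library (the highest without the male WT PFF macrophages) and 5017 without both male WT PFF libraries. With library totals and limma the sign turned for Tgfb1 (1.11 and 0.42), Smad2 (1.18 and 0.96) and Nrros (0.139 and 0.088). It also turned for Tgfb1 with the male CD163KO MONO libraries (0.49), and for Smad2 without 1 library (-0.58 to 0.16) and with the matched combination as a replicate block (0.025). With that block 2499 genes and 6 members were called. The labels give no shared replicate numbers, so the block joins libraries of the same sex, genotype and treatment only.

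For PFF against MONO, genes called were 1, 13 and 1 in macrophages with library totals, DESeq2 and limma, 0 to 4 without 1 library, and 3, 11, 25 and 1 in microglia with library totals, no filter, DESeq2 and limma, 0 to 1 without 1 library. For genotype they were 2, 2 and 4 in macrophages with library totals, DESeq2 and limma, 0 to 5 without 1 library, and 19 and 3 in microglia with no filter and DESeq2. For sex they were 6, 1, 17, 6 and 1 in macrophages with library totals, no filter, DESeq2, limma and the male CD163KO MONO libraries, 0 to 7 without 1 library, and 5, 6, 20 and 5 in microglia with the first 4 of these, 0 to 3 without 1 library. For the interaction they were 6, 17 and 3 in macrophages with library totals, DESeq2 and limma, 2 to 3378 without 1 library (0 to 4 members, the highest without the female WT PFF macrophages). In microglia they were 1, 1, 105, 32 and 0 with RLE scaling, library totals, no filter, DESeq2 and the male CD163KO MONO libraries, and 1 to 411 without 1 library (the highest without the female WT MONO microglia). The interaction could not be fitted without the female CD163KO MONO library of a population.

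Uncalled log2 fold changes turned sign without 1 library for Tgfbr1 under treatment (-0.23 to 0.10 in macrophages, -0.46 to 0.33 in microglia), Smad7 in macrophages under treatment (-1.005 to 2.73), genotype (-3.98 to 0.27) and the interaction (-9.90 to 1.83), and Tgfb1 under sex (-3.37 to 0.17 in macrophages, -2.45 to 0.20 in microglia, 0.80 there with the male CD163KO MONO libraries). With library totals and limma Tgfbr1 in microglia turned under sex (-0.052 and -0.075) and the interaction (0.62 and 0.62). The cause was not tested. Few counts limit Tgfb1, Smad3, Smad4 and Smad7 in macrophages, where some libraries hold 0 or 1 estimated count of them, although these libraries are not among the shallowest.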
